A study of Mus musculus with 10 samples.

Results

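Immunoglobulin and plasma cell genes were followed across the tongue libraries of the series through 10 listed genes: the heavy chain constant genes Ighm, Igha, Ighg1 and Ighg2b, the light chain constant genes Igkc and Iglc2, the joining chain gene Jchain, the chaperone cofactor gene Mzb1, and Cd79a and Cd79b, which encode the signalling chains of the B cell receptor. They were found by matching the Ensembl identifiers of the normalised count table to mouse symbols, and 8 of the 10 had a row among its 27151 genes. Ighg2b and Iglc2 had no row in the table used here and were not analysed. Of these 8, 4 passed the filter on low values (a normalised count of at least 10 in at least 4 libraries) that admitted 17088 genes to the test: Ighm, Igkc, Mzb1 and Cd79b. Tongue tissue of C57BL/6J mice gave all 10 libraries, and both groups had received 4NQO, which induces oral lesions. Of these, 4 were labelled vehicle and 6 were labelled SP2509, an inhibitor of the histone demethylase LSD1, with SP2509h in their titles. Age, dose, duration and the mouse behind each library are not in the labels, so the spread that the p-values rest on may be partly technical.

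An immunoglobulin is built from paired heavy and light chains, each with a variable part, assembled from V, D and J segments, and a constant part that sets the isotype. Naive B cells carry IgM and IgD on their surface, where Cd79a and Cd79b pass the signal inward, and plasma cells secrete large amounts of one isotype with the help of Mzb1 and, for polymeric IgA and IgM, of the joining chain. At mucosal and glandular surfaces polymeric IgA is carried across the epithelium by the receptor encoded by Pigr.

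Whole reads recovered from the table ranged from 9180844 to 14768955 per vehicle library and from 15748571 to 19375555 per SP2509 library, and the normalised value of 1 read lay between 0.898 and 1.85 (vehicle) or 0.727 and 0.873 (SP2509). SP2509 replicates 1 and 2, and replicates 4 and 5, were close pairs among highly expressed genes. At 1000 to 5000 reads per gene their spread was 5.55 and 5.17 times the counting expectation, against 18.9 to 297 in the other 19 pairs of libraries of one group. At 10 to 50 reads it was 2.32 and 3.26 against 2.65 to 6.93, so at the counts of most members the second pair did not stand apart. Mitochondrial genes took 35.3% to 52.1% of the reads in vehicle and 24.0% to 32.2% in SP2509, which do not overlap, and their part in the results was not tested beyond the scaling without them. SP2509 means and SDs are given over 4 units with each close pair averaged, while fold changes come from all 10 libraries and the fit with the pairs averaged stands beside them. Replicates 4 and 5 also held gland tissue transcripts, with a summed level of 16 lingual gland markers of 420630 and 435377 normalised reads, against 31.3 to 39.6 in SP2509 replicates 1 to 3, 5816 in replicate 6 and 48.2 to 462 in vehicle. Skeletal muscle markers (11 of 11 present) summed to 846319 in replicate 6 and to 169140 to 404791 elsewhere, and 12 of 12 keratinocyte markers were present in a sum of 69464 to 329122. Of the 17088 genes tested with limma, 846 were higher and 709 lower in SP2509 at an adjusted p under 0.05. That split was 666 and 1060 after quantile normalization, and 297 and 1442 after scaling to reads outside mitochondrial genes.

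Immunoglobulin constant genes share stretches of sequence, which decides how far reads can be assigned to one of them. The coding sequences of Ighm, Ighd, Igha and Igkc in GENCODE M21 (GRCm38) held no window of 50 bases that recurred in another constant gene compared. Among the IgG genes, 5.75% of the 50-base windows of Ighg2c, 9.07% of those of Ighg2b and 0.883% of those of Ighg1 recurred in another one. The longest exact runs shared by these IgG genes are shown because a read inside them could come from either gene, so the values of Ighg2c and Ighg1 carry that uncertainty. The first lies at chr12:113306869-113306946 in Ighg2b and chr12:113287869-113287946 in Ighg2c, and the second at chr12:113327476-113327534 in Ighg1 and chr12:113304943-113305001 in Ighg2b, all in coding exons on the minus strand of GRCm38.
Ighg2b and Ighg2c: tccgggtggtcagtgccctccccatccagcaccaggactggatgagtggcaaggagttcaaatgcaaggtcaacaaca
Ighg1 and Ighg2b: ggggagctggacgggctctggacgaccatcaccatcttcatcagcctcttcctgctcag

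The heavy chain gene of IgM was the most abundant immunoglobulin transcript, and its level fell. Ighm (ENSMUSG00000076617, chromosome 12, 113418558 to 113422730, minus strand) stood at 169, 321, 269 and 179 normalised reads in vehicle replicates 1 to 4. In SP2509 replicates 1 to 6 it stood at 148, 161, 81.2, 87.9, 108 and 142. Every vehicle library lay above every SP2509 library, although vehicle replicate 1, at 169, was close to SP2509 replicate 2, at 161. The means were 234 ± 73.2 (SD, n = 4) and 119 ± 34.9 (SD, n = 4 units), and Ighm fell by 0.94 on the log2(value + 1) scale (SE 0.25, limma adjusted p = 0.0378). Of the 4 members tested, Ighm was the 1 called lower and none was called higher, where 4.15% of all genes tested were lower, 4.95% higher and 9.1% called in either direction. Groups did not overlap, with vehicle above, for Ighm and Igkc, and over all genes tested this held for 5.11%, with SP2509 above for 6.54%. Igkc met the filter through its 4 vehicle libraries, so its place in this and the following counts is a description. edgeR on the recovered reads also called Ighm alone of the 4 (4.27% of all genes lower), and DESeq2 called Ighm and Igkc (8.12% lower). With the close pairs averaged the adjusted p of Ighm was 0.102, and no gene of the table passed in limma (lowest adjusted p = 0.0718). At an unadjusted p under 0.05 in that fit Ighm and Igkc were lower, as were 9.67% of all genes. Leaving out any vehicle library, or SP2509 replicate 1, 3, 4 or 5, also ended the call (limma adjusted p 0.0504 to 0.096), as did leaving out SP2509 replicates 4 and 5 together (limma adjusted p = 0.119), while the fold change stayed between -1.08 and -0.77 when any library was left out. These libraries are bulk tissue, so fewer cells of a type and less RNA per cell cannot be told apart.

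**Figure D1:**
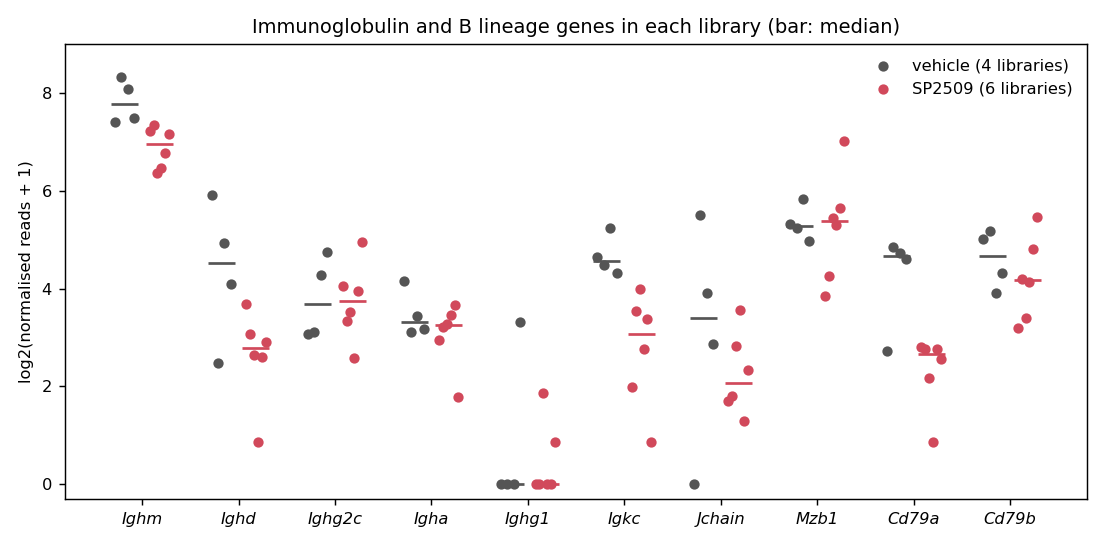
Each point is 1 library, with log2(normalised reads + 1) on the vertical axis, the 8 members of the table and the constant genes Ighd and Ighg2c on the horizontal axis, and a bar at the group median. Ighm lies between 169 and 321 normalised reads in the 4 vehicle libraries and between 81.2 and 161 in the 6 SP2509 libraries, and most other genes rest on under 60 normalised reads in every library.

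Igkc, the constant gene of the kappa light chain that most mouse antibodies carry, was low in all libraries. Igkc (chromosome 6, 70726435 to 70726966, plus strand) had 24.1, 21.5, 36.6 and 18.9 normalised reads in vehicle, which rest on 74 reads in all, and 2.98, 10.7, 14.8, 5.81, 9.45 and 0.814 in SP2509, on 55 reads. The lowest vehicle library lay above the highest SP2509 library. Its log2 fold change was -1.91 ± 0.59 (SE, limma adjusted p = 0.0597, and 0.137 with the close pairs averaged), so it did not pass the threshold. Igkc reached the filter in 4 vehicle and 2 SP2509 libraries, so its higher group carried it into the test. Without SP2509 replicate 6, which held 1 read of Igkc, the fold change was -1.535 and the adjusted p 0.0369.

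Per kilobase of exon, the order of the constant genes was led by Ighm in both groups. In vehicle the mean level was 124 normalised reads per kilobase for Ighm, 47.5 for Igkc, 14.4 for Ighd, 11.2 for Ighg2c, 3.96 for Igha and 0.866 for Ighg1. In SP2509 it was 63.0 for Ighm, 14.2 for Igkc, 11.8 for Ighg2c, 3.21 for Ighd, 2.76 for Igha and 0.331 for Ighg1. Igkc per kilobase divided by the summed heavy chain constant level per kilobase was 0.223 to 0.392 in vehicle and 0.0149 to 0.481 in SP2509, ranges that overlap.

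Ighd encodes the delta chain that naive B cells co-express with IgM from one transcript. It had 59.3, 4.61, 29.6 and 16.2 normalised reads in vehicle and 11.9, 7.42, 5.24, 0.830, 5.09 and 6.51 in SP2509. Vehicle replicate 2, the library with the highest Ighm, was the lowest vehicle library in Ighd, below 5 of the 6 SP2509 libraries. The log2 fold change of Ighd was -1.73 ± 0.695 (SE, limma adjusted p = 0.131), and DESeq2 called it lower (adjusted p = 0.0151). Ighd rested on 74 reads in vehicle, 32 of them in replicate 1, and 47 in SP2509. It reached the filter value in 3 vehicle libraries and 1 SP2509 library, so mainly its higher group carried it into the test. Ighg2c, an IgG gene of the C57BL/6 strain, had 7.42, 7.68, 18.3 and 26.0 normalised reads in vehicle and 15.6, 9.07, 10.5, 4.98, 14.5 and 30.1 in SP2509. The groups overlapped over nearly their whole range, at -0.070 ± 0.52 (SE, limma adjusted p = 0.948), and the sign turned under several alternatives.

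Class-switched transcripts rested on few reads. Igha, the constant gene of IgA, had 16.7, 7.68, 9.85 and 8.08 normalised reads in vehicle (30 reads in all) and 6.70, 8.25, 8.73, 9.95, 11.6 and 2.44 in SP2509 (60 reads). It lay under the filter, and the SP2509 libraries were on average -0.42 from vehicle on the log2 scale (two-sided exact permutation p = 0.386). Ighg1 was at 0 in vehicle replicates 1 to 3, where 3 reads would be worth 5.56, 4.61 and 4.22 normalised reads, and at 8.98 in replicate 4. In SP2509 it was at 0 in replicates 1, 2, 4 and 5, at 2.62 in replicate 3 and at 0.814 in replicate 6. These 10 reads in vehicle and 4 in SP2509 allow no comparison at this depth (exact permutation p = 0.733).

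The summed heavy chain pool did not overlap between the groups, while the shares of its isotypes did. Summed per kilobase over Ighm, Ighd, Igha, Ighg1 and Ighg2c, the pool was 155 ± 27.5 (SD, n = 4) in vehicle and 81.1 ± 23.0 (SD, n = 4 units) in SP2509, with 129 as the lowest vehicle and 102 as the highest SP2509 value. Ighm made up 78.9% ± 11.4 (SD, n = 4) of it in vehicle and 77.7% ± 4.66 (SD, n = 4 units) in SP2509. The pool therefore largely repeats the Ighm values given above and is not a separate result. Ighd held 1.34% to 23.6% in vehicle and 0.800% to 6.32% in SP2509, and Igha 1.59% to 4.72% and 0.893% to 6.84%. Ighg2c held 3.19% to 15.2% in vehicle and 6.88% to 22.2% in SP2509, so all these ranges overlap. The shares are given as a description with no test.

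**Figure D2:**
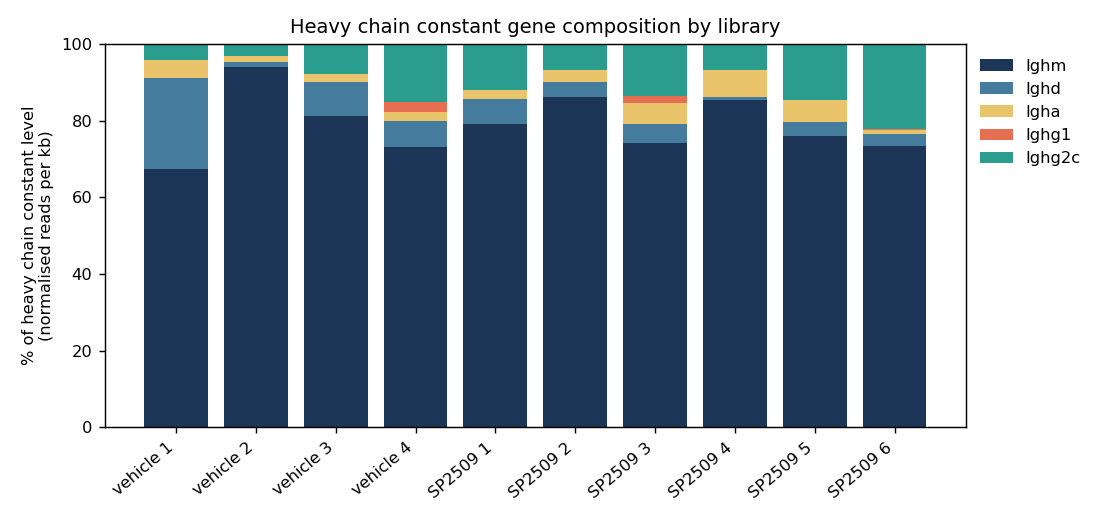
Stacked bars show, for each of the 10 libraries, the percent of the summed heavy chain constant level (normalised reads per kilobase) held by Ighm, Ighd, Igha, Ighg1 and Ighg2c. Ighm fills 67.5% to 93.9% of every bar, and vehicle replicate 1 has the largest Ighd share, 23.6%.

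Jchain, which links IgA and IgM into polymers, was uneven among vehicle libraries. Jchain (chromosome 5, 88519809 to 88527891, minus strand) had 0, 44.5, 14.1 and 6.29 normalised reads in vehicle and 2.23, 2.47, 6.11, 10.8, 1.45 and 4.07 in SP2509. Vehicle replicate 2 held 29 of its 46 vehicle reads, and vehicle replicate 1 held none, where 3 reads would be worth 5.56 normalised reads. On the log2 scale the group difference was -0.82 (two-sided exact permutation p = 0.452). Without vehicle replicate 1 the difference was -1.84 (exact permutation p = 0.0357), and without vehicle replicate 2 it was -0.0071 (exact permutation p = 1). Over the 10 libraries, after subtracting each group mean, the 8 tested genes outside the immunoglobulin loci with the pattern most like Jchain were C130013H08Rik, Lrfn3, Gm6277, Ltbp2, Il19, Mad2l2, Lrrc17 and AC114990.1, with Pearson r from 0.962 down to 0.929 on log2 values. For Ighm they included Ing4, Taf3, Pou2f1, Gdf11, Pde8a, Pigw and 2610203C22Rik, with r from 0.94 down to 0.868. These are descriptions over 10 libraries that share their scaling.

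Cd79a, which is restricted to the B lineage, was lower in SP2509 at a level under the filter. Cd79a (chromosome 7, 24897381 to 24902197, plus strand) had 5.56, 27.6, 25.3 and 23.3 normalised reads in vehicle (65 reads) and 5.96, 5.77, 3.49, 0.830, 5.82 and 4.88 in SP2509 (34 reads). Vehicle replicates 2 to 4 lay above every SP2509 library and vehicle replicate 1 lay within the SP2509 range. Its group difference on the log2 scale was -1.90 (two-sided exact permutation, unadjusted p = 0.019), where 0.00476 is the smallest p the design allows. Of the 10063 genes under the filter, 4.48% were lower and 1.63% higher at an unadjusted p under 0.05 in that test, so low genes leaned lower in general. With the close pairs averaged the difference of Cd79a was -1.82 (exact permutation p = 0.0571), and without SP2509 replicates 4 and 5 it was -1.65 (exact permutation p = 0.0857). Cd79b (chromosome 11, 106311341 to 106314762, minus strand), whose product pairs with that of Cd79a, had 31.5, 35.3, 14.1 and 18.9 normalised reads in vehicle and 8.19, 17.3, 9.60, 16.6, 26.9 and 43.1 in SP2509. SP2509 replicate 6 was its highest library, and the log2 fold change was -0.41 ± 0.47 (SE, limma adjusted p = 0.605). Whether the changes of Cd79a and Cd79b differ from each other was not tested.

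The sequences before the start sites of Jchain and Cd79a, taken from the RefSeq promoter table (GRCm38.p6), are shown. Windows of the other members were not examined, so the motif search covers these genes alone. For Cd79a only the part before the GENCODE gene model is printed. Each is on its gene's strand, Jchain at chr5:88527898-88528147 and Cd79a at chr7:24897247-24897380. Neither 250-base window held, on either strand, the octamer ATGCAAAT known from immunoglobulin promoters, the palindromic core CCCNNGGG bound by EBF factors, or the TATA motif TATAAA. Of 32851 windows of that length, 1.60%, 11.8% and 12.4% held them. Only exact matches were counted, so binding sites that depart from these letters would be missed. As no exact match was found, no base is in capitals.
Jchain: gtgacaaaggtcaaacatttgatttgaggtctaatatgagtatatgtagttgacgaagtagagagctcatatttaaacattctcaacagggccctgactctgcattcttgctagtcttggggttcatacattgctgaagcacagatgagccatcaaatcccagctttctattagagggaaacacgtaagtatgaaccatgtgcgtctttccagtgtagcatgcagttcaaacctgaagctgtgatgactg
Cd79a: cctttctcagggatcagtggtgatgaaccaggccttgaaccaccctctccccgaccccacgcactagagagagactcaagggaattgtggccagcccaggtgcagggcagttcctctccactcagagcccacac

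Mzb1, a cofactor of immunoglobulin assembly in the endoplasmic reticulum of marginal zone B cells and plasma cells, varied most among the SP2509 libraries. It had 38.9, 36.9, 56.3 and 30.5 normalised reads in vehicle and 13.4, 18.1, 42.8, 38.2, 49.4 and 128 in SP2509. SP2509 replicates 1 and 2 lay below every vehicle library and replicate 6 lay above every one. The log2 fold change was -0.093 ± 0.51 (SE, limma adjusted p = 0.928), and it was 0.25 in edgeR on the recovered reads. The neighbouring gene Prob1, on the same strand, stood at 1127 normalised reads in replicate 6 and at 247 to 400 in the other libraries. In replicate 6, where Mzb1 was highest, Igkc was at 0.814 and Igha at 2.44 normalised reads, the lowest values of both genes in any library.

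Levels of the IgA receptor gene spanned a far wider range than those of Igha. Pigr, expressed by glandular and mucosal epithelium, stood at 3274 and 3531 normalised reads in SP2509 replicates 4 and 5, at 43.9 in replicate 6 and at 9.21 or less in the other 7 libraries. Muc5b, a gland mucin gene, stood at 270597 and 281216 in replicates 4 and 5 and at 644 or less elsewhere. In those libraries Igha was at 9.95 and 11.6 normalised reads, the highest of the SP2509 libraries, where the others had 2.44 to 8.73, and within the vehicle range of 7.68 to 16.7. Jchain was at 10.8 in replicate 4 and at 1.45 in replicate 5, its highest and lowest SP2509 values. Mzb1, at 38.2 and 49.4, lay within its vehicle range.

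**Figure D3:**
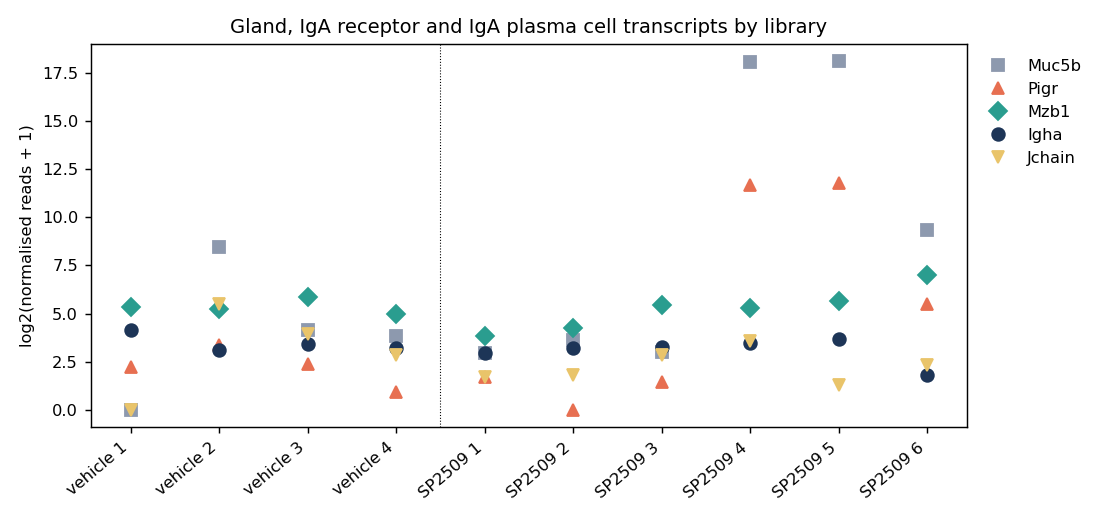
Points give log2(normalised reads + 1) of Muc5b, Pigr, Mzb1, Igha and Jchain in each of the 10 libraries, with a dotted line between vehicle and SP2509. Muc5b and Pigr are highest in SP2509 replicates 4 and 5, where Pigr is at 3274 and 3531 and Igha stays at 9.95 and 11.6 normalised reads, and Mzb1 is highest in SP2509 replicate 6, at 128.

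Variable segments had few rows. Of 376 annotated V genes and V pseudogenes 8 had a row in the table, 6 of the kappa and 2 of the heavy chain locus, with 122 reads in vehicle and 80 in SP2509, against 929 and 1188 reads of the 6 constant genes. Igkv8-21 had 7.42, 6.14, 12.7 and 21.5 normalised reads in vehicle and 3.72, 3.30, 0, 3.32, 2.91 and 3.26 in SP2509. Every vehicle library was above every SP2509 library, although the counts were 4 to 24 reads per vehicle library and 0 to 5 per SP2509 library. Igkv8-30 reached 22.5 normalised reads in vehicle replicate 3 and Igkv3-7 reached 13.0 in vehicle replicate 1. Among heavy chain segments, Ighv1-23 reached 9.88 in vehicle replicate 4 and Ighv1-36 reached 9.95 in SP2509 replicate 4. SP2509 replicate 3 had no V read, and the segment with most reads was not the same in all libraries. No V segment of the lambda locus was in the table used here.

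Other genes of B cell identity were mostly low as well. Of 25 listed, 24 were in the table and 12 passed the filter, of which 1 (Cd22) was called lower in limma, where 4.15% of all genes were, and none higher. Of the 12, 9 had a negative fold change, as had 8218 of all 17088 genes, and the median was -0.38 against 0.021. Cd22, an inhibitory co-receptor of B cells, had 18.5, 13.8, 21.1 and 15.3 normalised reads in vehicle and 6.70, 5.77, 1.75, 0.830, 2.18 and 1.63 in SP2509. Cd22 passed the filter through its 4 vehicle libraries alone, so it had to differ to be tested, and its values are a description. Ebf1, a transcription factor gene of early B cells that stromal and fat cells also express, stood at 254 to 389 in vehicle and at 188 to 239 in SP2509 (-0.499 ± 0.15 SE, limma adjusted p = 0.0525), and edgeR (adjusted p = 0.0441) and DESeq2 (adjusted p = 0.00819) called it lower. Blk, a B cell kinase gene, was at -0.66 ± 0.37 (limma adjusted p = 0.268). Under the filter, Pax5, the B lineage commitment factor gene, had 27.8, 16.9, 22.5 and 4.49 normalised reads in vehicle, and its SP2509 values lay between 1.45 and 5.77. Ms4a1, which encodes CD20, had 0 to 12.3 in vehicle and 0 to 5.09 in SP2509, and Pou2af1, a coactivator of octamer-binding factors, had 4 reads in vehicle and 13 in SP2509. No vehicle library was high in all of them: replicate 1 was highest in Pax5 and Ighd and lowest of the vehicle libraries in Cd79a and Jchain.

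Markers of other leukocytes are given beside these genes. Ptprc, which encodes the pan-leukocyte antigen CD45, had 109, 250, 142 and 194 normalised reads in vehicle, and its SP2509 values ran from 87.2 to 125 (log2 fold change -0.69 ± 0.22 SE, limma adjusted p = 0.0711). DESeq2 called Ptprc lower (adjusted p = 0.012) and edgeR did not (adjusted p = 0.0539). All 6 pan-leukocyte markers were present, summing to 753 to 1019 in vehicle and 678 to 873 in SP2509. Of the 6, 3 had a positive and 3 a negative fold change, and limma and edgeR called 0. DESeq2 called Ptprc and Coro1a lower, as it did 8.12% of all genes. Coro1a stood at 367.4 to 402.4 in vehicle and at 254.5 to 349.7 in SP2509 (limma adjusted p = 0.0616). It was the 1 of the 6 with every vehicle library above, against 5.11% of all genes tested. All 10 T cell markers summed to 324 to 490 and 256 to 431, and all 10 macrophage markers to 1315 to 2650 and 2024 to 3795. The 9 dendritic cell markers summed to 453 to 597 in vehicle and 279 to 438 in SP2509, with every vehicle library above. Taken singly, 2 of the 9 had every vehicle library above, as had 5.11% of all genes tested. All 9 had a negative fold change (median -0.70), as had 8218 of all 17088 genes. Itgax, which encodes CD11c, was the 1 called lower (-1.06, limma adjusted p = 0.0351), where 4.15% of all genes were. Among the 9 tested T cell markers 4 had a positive and 5 a negative fold change (median -0.22). Trbc2 was called higher (1.32, limma adjusted p = 0.0151). Lck was at -1.15 (limma adjusted p = 0.058), and edgeR (adjusted p = 0.0484) and DESeq2 (adjusted p = 0.00955) called it lower. Of the 10 macrophage markers 9 had a positive fold change, and C1qb was called higher (0.92, limma adjusted p = 0.0357). Of all genes tested, 4.95% were called higher in limma. The part of leukocyte content in the lower Ighm was not tested.

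Plasma cell identity genes had fold changes of both signs. Of 12 tested genes none was called in limma or edgeR, 2 had an unadjusted limma p under 0.05 (Prdm1 and Xbp1) and DESeq2 called 1 (Xbp1). Of the 12, 6 had a positive and 6 a negative fold change, and the median was 0.026. Prdm1, which encodes Blimp-1, the factor that drives plasma cell formation, had 50.1, 92.1, 47.9 and 65.5 normalised reads in vehicle and 54.4, 49.5, 40.2, 40.6, 19.6 and 17.9 in SP2509 (-0.84 ± 0.35 SE, limma adjusted p = 0.147). Xbp1, a factor of secretory cells in general, stood at 895 to 999 in vehicle, at 1240 to 1265 in SP2509 replicates 1, 2, 3 and 6 and at 2926 and 2848 in replicates 4 and 5 (0.81 ± 0.27 SE, limma adjusted p = 0.0774). Without SP2509 replicates 4, 5 and 6 it was called higher at 0.41 (limma adjusted p = 0.0178). Ell2, an elongation factor gene that favours the secreted heavy chain form, was at 0.32 ± 0.17 (limma adjusted p = 0.231), and was called higher at 0.45 without SP2509 replicate 6 (limma adjusted p = 0.011), its lowest SP2509 library. Tnfrsf17, which encodes the plasma cell receptor BCMA, rested on 9 reads in vehicle and 5 in SP2509.

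Genes of protein folding and secretion in the endoplasmic reticulum had positive fold changes. All 20 tested genes of this list had a positive fold change, 5 were called higher and none lower, with a median of 0.77. Over all genes tested 8870 of 17088 were positive and 4.95% were called higher, and the skeletal muscle list (11 of 11) and the keratinocyte list (12 of 12) were also positive throughout. These genes serve all secretory and stressed cells, not plasma cells alone, and the list was chosen with an earlier rise of such genes in these libraries known. In 7 of the 20 every SP2509 library lay above every vehicle library, as in 6.54% of all genes tested. Some positive fold changes rested on SP2509 replicates 4 and 5. Fkbp11 stood at 730 and 744 normalised reads there, at 27.7 to 44.5 in the other SP2509 libraries and at 27.6 to 63.0 in vehicle. Sec11c stood at 1214 and 1307 there, at 321 to 393 in the other SP2509 libraries and at 350 to 486 in vehicle. Dnajb9, a co-chaperone gene, rose from 167 ± 26.2 (SD, n = 4) to 291 ± 70.0 (SD, n = 4 units) normalised reads (log2 fold change 0.79 ± 0.19 SE, limma adjusted p = 0.0287, and 0.0823 with the close pairs averaged). Hspa5, which encodes the chaperone BiP that holds unpaired heavy chains, rose from 1482 ± 191 to 3340 ± 1352 (1.09 ± 0.29 SE, limma adjusted p = 0.037, and 0.0796 averaged). Spcs2, a signal peptidase subunit gene, rose by 0.65 (SE 0.17, limma adjusted p = 0.0392, and 0.11 averaged), and Herpud1 was called as well (limma adjusted p = 0.024). The fifth, Erlec1, was outside the rule for named genes. Of these calls, those of Dnajb9, Hspa5, Spcs2 and Herpud1 were lost without SP2509 replicates 4 and 5, the libraries with the most gland transcripts (limma adjusted p 0.0599 to 0.0833, fold changes 0.60, 0.74, 0.43 and 0.84). Each was also lost without vehicle replicate 1 or 2 (limma adjusted p 0.0532 to 0.12), and Dnajb9, Hspa5 and Spcs2 without vehicle replicate 3 or SP2509 replicate 5 (0.0594 to 0.0929). Removing vehicle replicate 4, SP2509 replicate 3 or SP2509 replicate 4 ended the calls of Hspa5 and Spcs2 (0.0646 to 0.0707), and Spcs2 without SP2509 replicate 1 or 2 (0.0531 and 0.0551).

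**Figure D4:**
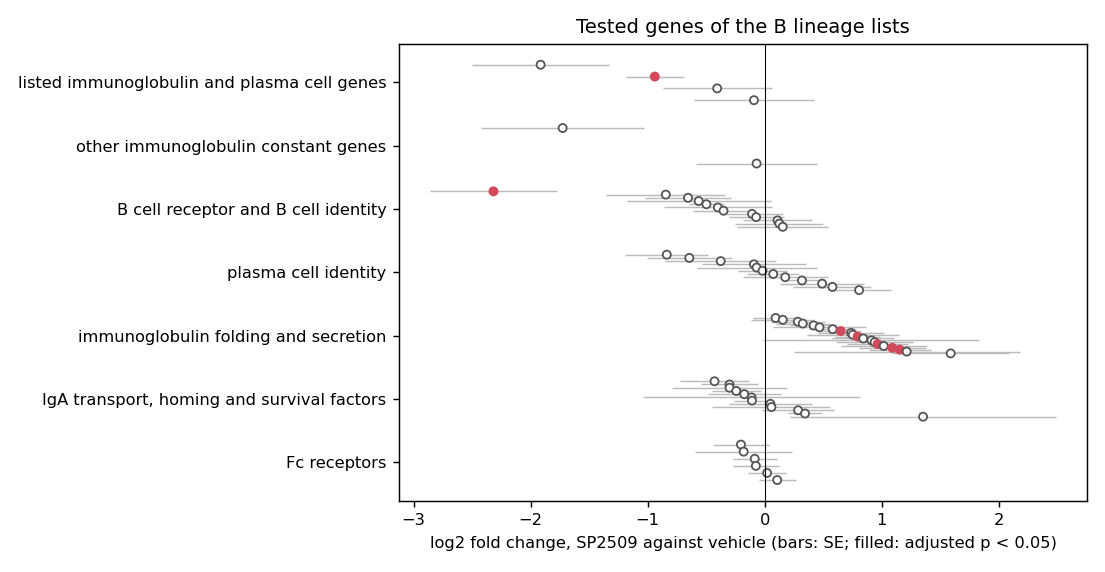
Each point is a tested gene, with its log2 fold change (SP2509 against vehicle) on the horizontal axis, a bar for the SE, and 1 row of points for each of 7 B lineage and antibody gene lists, without the marker lists of other cells. Filled points passed an adjusted p of 0.05. In these lists Ighm and Cd22 are filled on the lower side, and 5 folding and secretion genes are filled on the higher side. Of these, Cd22 entered the test through its vehicle libraries alone.

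Genes of IgA transport, homing and survival and the Fc receptors held no gene called by limma. Of 12 tested genes of the first list 5 had a positive fold change (median -0.11), 1 (Tgfb1) had an unadjusted limma p under 0.05, edgeR called 0 and DESeq2 called 1 (Ccl28, higher). Ccl28 stood at 322 and 392 normalised reads in SP2509 replicates 4 and 5, the libraries with the most gland transcripts. It stood at 6.70 to 12.2 in the other SP2509 libraries and at 9.21 to 15.5 in vehicle. Tgfb1, a cytokine gene that favours the switch to IgA, was at 0.34 ± 0.15 (SE, limma adjusted p = 0.149). Tnfsf13, which encodes the plasma cell survival factor APRIL, was at -0.43 ± 0.295 (limma adjusted p = 0.363), and Cxcr4, a homing receptor gene of plasma cells and other leukocytes, at -0.30 ± 0.24 (limma adjusted p = 0.448). Of 6 tested genes of the Fc receptor list, 2 had a positive fold change, and none had an unadjusted limma p under 0.05 or was called by edgeR or DESeq2. Fcgr3 was at -0.20 ± 0.24 (limma adjusted p = 0.61), Fcgr2b at 0.11 ± 0.16 (limma adjusted p = 0.699) and Fcer1g at -0.086 ± 0.19 (limma adjusted p = 0.804), and the signs of Fcgr2b and Fcer1g turned under alternatives.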

How the data were processed

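Poly-A enriched RNA of 10 tongue libraries was sequenced by the submitters. HISAT2, featureCounts and mm10 appear in the submitters' processing notes, and no source used here names the annotation, strand setting or scaling tool. Each deposited signal value equals a whole read number divided by a factor common to its library. This was read from the values: divided by the lowest nonzero value of their library, 100% came within 0.01 of whole numbers. The table lists 27151 genes, and the smallest row total is 10 reads. Identifiers were matched to GENCODE M21 on GRCm38, the build of mm10.

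limma (3.58.1, R 4.3.3; trend, robust, two-sided, Benjamini-Hochberg) was run on log2(value + 1) over all 10 libraries. A fold change on this scale understates the change of low genes. Genes under the filter were compared by an exact permutation test (210 regroupings). Levels per kilobase used union exon length. edgeR (4.0.16) and DESeq2 (1.42.0) were alternatives on the recovered whole reads (edgeR called 804 genes higher and 729 lower), and the code was tested on simulated data. Tables were handled in pandas 2.3.3 under Python 3.11.15, and plots drawn with matplotlib 3.10.9. The members and lists were chosen with earlier results of these data known. Named were all members and other constant genes, the 3 highest V segments per locus, up to 4 called and 3 lowest-p genes per list, 8 genes with a like pattern, and further genes whatever their values (among them Pigr, Xbp1, Prdm1, Pou2af1, Ms4a1, Ptprc, Muc5b and Acta1). A few genes that this rule names are not reported here. Of the last group, Acta1 entered only through the muscle marker sum. Prob1, Pax5, Tnfrsf17, Ccl28, Itgax, Trbc2, Lck, C1qb, Erlec1, Fkbp11, Sec11c and Coro1a were chosen after their values were seen.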

Additional observations from a re-analysis of the deposited data

Results flagged for a closer look

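Among 66 groups of libraries examined over 33 genes, 7 held a library far from the others of its group. About 1 in 20 groups would be flagged among independent values with a normal spread. The values here were unlogged, some rest on few reads and 2 pairs of SP2509 libraries were close, so that rate is only a rough guide. Mzb1 stood at 128 normalised reads in SP2509 replicate 6, against 13.4 to 49.4 in the other SP2509 libraries. Ighg1 stood at 8.98 in vehicle replicate 4, with 0 in the other vehicle libraries, and at 2.62 in SP2509 replicate 3, with 0 to 0.814 in the others. Ell2 was lowest in SP2509 replicate 6, at 251 against 414 to 470. Tgfb1 was highest in SP2509 replicate 3, at 644 against 469 to 524. Tnfsf13 was highest in vehicle replicate 3, at 33.8 against 24.6 to 26.0. Muc5b was highest in vehicle replicate 2, at 347 against 0 to 16.9 normalised reads in the other vehicle libraries.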

How the results depend on the processing

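Ighm kept its direction under all 26 alternatives and its call under 14, and Igkc, Cd79b, Ighd and Cd79a kept their direction wherever they had a value. The number of members called lower, 1 in the report, was 2 with a pseudocount of 5, scaling to reads outside mitochondrial genes, library weights, DESeq2 or a threshold of 0.1, where Igkc, carried into the test by its vehicle libraries, joined Ighm. It was 0 in limma without trend, with the close pairs averaged, and without SP2509 replicates 4 and 5 or 4, 5 and 6, and 0 to 2 when single libraries were left out. The cause was not tested. No member was called higher under any alternative. Scaling to reads outside mitochondrial genes shifted the median of all genes to -0.13, with Ighm at -1.09. The count of all called genes, 1555, was 1032 without a filter, 906 without trend, 4159 with weights, 3006 in DESeq2, 0 with the pairs averaged, 375 and 2706 without replicates 4 and 5 and without 4, 5 and 6, and 278 (without vehicle replicate 1) to 3459 (without SP2509 replicate 6) with 1 library left out. With the pairs averaged 3632 genes had an unadjusted p under 0.05 in limma, and edgeR on the 10 libraries called 1533.

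Signs turned as follows. Mzb1 was at 0.051 after quantile normalization, 0.25 in edgeR, 0.24 in DESeq2, 0.16 with the pairs averaged, and -0.44 to 0.19 with 1 library left out. Ighg2c was at 0.018 after quantile normalization, 0.11 with the pairs averaged, 0.16 without SP2509 replicates 4 and 5, and -0.32 to 0.25 with 1 library left out. Fcgr2b was at -0.044 after scaling outside mitochondrial genes, -0.076 with weights, -0.024 without replicates 4, 5 and 6, and -0.023 to 0.21 with 1 library left out, and Fcer1g at -0.20 to 0.081. Ighg1 was at -0.66 to 0.45 with 1 library left out, the last without vehicle replicate 4, and Muc5b turned to -0.92 without SP2509 replicates 4, 5 and 6.

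The replicate block gave Ighm at -0.98 (limma adjusted p = 0.0311), left 1 member called lower and 0 higher, ended that of Cd22 (limma adjusted p = 0.0872) and gave one to Xbp1 (0.71, limma adjusted p = 0.045). Ell2 was called higher with weights (limma adjusted p = 0.0064) and without SP2509 replicates 4, 5 and 6 (limma adjusted p = 0.0247). Libraries with the same number correlated at 0.126, 0.0323, -0.198 and 0.125 in their deviations from the group means, so the numbers were not used as pairs. Only vehicle replicate 4 correlated best with its own number. Depth limits Igha, Ighg1, Jchain, Cd79a and every V segment to under 100 reads over all libraries.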
